A study of Mus musculus with 19 samples.

Results

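The 10 genes described here were those of the mouse MHC class II pathway: the classical chains H2-Aa, H2-Ab1, H2-Eb1 and H2-Ea, the peptide editor chains H2-DMa and H2-DMb1, the chains of its inhibitor H2-Oa and H2-Ob, the invariant chain Cd74 and the transactivator Ciita. Every probe other than a control whose listed gene name was 1 of these was taken, which gave 15 of 41174 probes and 10 of 27745 gene names. By the mm8 positions in the files 8 of the genes lie in 1 cluster on chromosome 17, from H2-Oa (chr17:33705542-33705601) to H2-Ea (chr17:33952105-33952164), while Ciita is at chr16:10439788-10439847 and Cd74 is on chromosome 18. Their signals were measured on Agilent whole mouse genome arrays, hybridized with 1 color, in RNA of leukocytes captured on LeukoLOCK filters from the blood of male C57BL/6 (B6) and DBA/2 mice aged 5 to 14 weeks. Every sample is labelled as taken after administration of CAWS, a water-soluble extract of Candida albicans, which was injected into the peritoneum on 5 consecutive days. By the paper CAWS induces arteritis in both strains, with a later onset in B6 mice. The methods name doses of 0 and 1 mg per mouse, the labels give no dose, and no group is labelled as uninjected. By the methods 0 w was set right after the last injection. The groups were B6 and DBA/2 mice at 0, 2, 4, 8 and 9 w. B6 2 w and B6 9 w held 1 sample each and the other 8 groups held 2, which made 18 samples. The labels call the samples of a group biological replicates, with 1 exception. For 1 DBA/2 2 w sample a label reads technical replicate, while its title numbers it as replicate 2, and it was used as such. The methods state that RNA came from individual mice. Many DBA/2 mice and few B6 mice died during the course, so the later DBA/2 groups hold survivors only.

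MHC class II molecules are pairs of an alpha and a beta chain, I-A (H2-Aa with H2-Ab1) and I-E (H2-Ea with H2-Eb1), that show peptides from endocytosed proteins to helper T cells. Cd74 holds the new chains together and blocks their groove until proteases trim it, after which H2-DM loads peptide and H2-DO restrains H2-DM. Ciita is the transcriptional switch for the set: it binds no DNA itself but docks on factors sitting at the conserved X and Y boxes before the class II genes. In blood these genes are expressed mainly by B cells, and also by dendritic cells and part of the monocytes. B6 mice carry the H-2b haplotype, in which the H2-Ea promoter is deleted so that no I-E is made, while DBA/2 mice carry H-2d and make both.

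Promoters of these genes are shown as background, and their part in the changes below was not tested. RefSeq promoters on GRCm38.p6, from 250 bases before to 50 bases after a gene's start, were at hand for 6 of the 10 genes (H2-Aa, H2-Eb1, H2-DMa, H2-DMb1, H2-Oa and H2-Ob), in 7 entries. The letters TGATTGG, the inverted CCAAT of the Y box, stood on either strand of 5 of the 6, the exception being H2-DMa, and of 7.82% of all 32851 promoters of that length. The letters AGNAAC, taken for the 5′ part of the X box, began 20 to 40 bases before TGATTGG on the same strand in 4 of the 6 and in 0.204% of all promoters, whereas alone they stood in 48.1%. Both sets of letters, which do not overlap each other, were chosen after these promoters had been looked at, so the counts are descriptions. The 80 bases around TGATTGG read as follows, 5′ to 3′, with TGATTGG and, where found, AGNAAC in capitals.
H2-Aa (chr17:34287844-34287923, minus strand): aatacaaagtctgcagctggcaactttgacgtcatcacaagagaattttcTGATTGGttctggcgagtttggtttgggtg
H2-Eb1 (chr17:34305756-34305835, plus strand): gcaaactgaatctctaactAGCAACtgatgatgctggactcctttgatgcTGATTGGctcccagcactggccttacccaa
H2-DMb1 (chr17:34153078-34153157, plus strand): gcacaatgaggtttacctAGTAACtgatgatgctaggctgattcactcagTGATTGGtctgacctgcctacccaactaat
H2-Oa (chr17:34092284-34092363, plus strand): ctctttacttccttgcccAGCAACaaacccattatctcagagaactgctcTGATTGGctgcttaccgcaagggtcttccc
H2-Ob (chr17:34238796-34238875, plus strand): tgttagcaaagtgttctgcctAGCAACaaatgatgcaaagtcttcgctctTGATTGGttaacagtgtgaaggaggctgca

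Values are normalized log2 signals, in which 0 is the 75th percentile of an array over the probes detected on all arrays, and a difference of 1 is a 2-fold change. Differences were tested with limma over 22939 probes with Benjamini-Hochberg adjustment, and a gene is said to have risen or fallen only where its adjusted p was under 0.05. A gene is given by its brightest probe, and levels of different probes are not set against each other. Of the 10 genes, 8 were well above background in all 18 samples. H2-Ob was so in 13 samples, and H2-Ea in 12, which were all 10 DBA/2 samples and 2 B6 samples. No probe of the 15 was saturated. Between 33.9% and 51.4% of the 43379 spots were well above background on the 19 arrays. Hepatocyte transcripts summed to 50.9 to 52.2 in B6 mice at 0 w and 33.4 to 34.5 at 8 w, on a linear scale in which 1 is the 75th percentile, against 0.606 to 1.63 in the other groups. These B6 weeks therefore enter the comparisons below with that signal in them. The 9 samples numbered 1 were scanned on 1 day and the 9 numbered 2 on another, and calls that changed with the scan day as a block are given beside the results. The second DBA/2 sample at 9 w had 1187 spots marked as outliers against 64 to 180 on the other arrays.

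**Figure D1:**
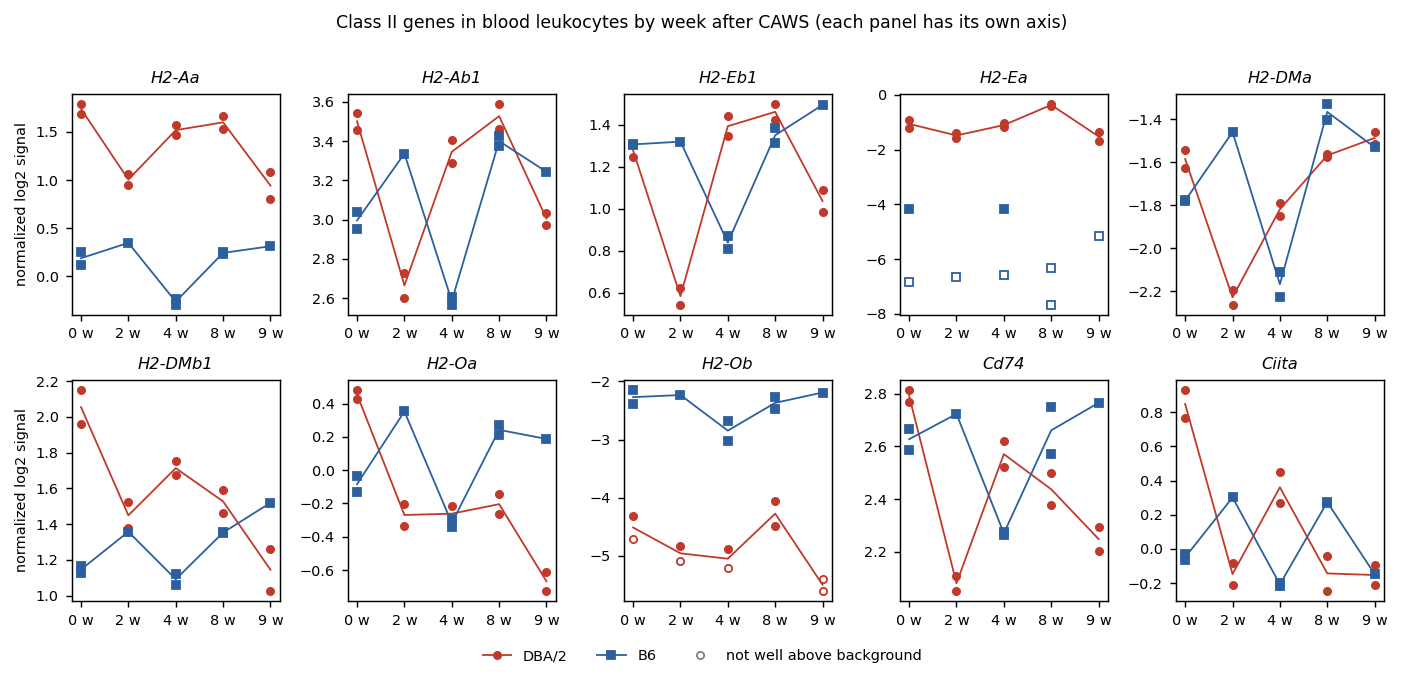
Normalized log2 signal (y axis, 0 is the 75th percentile of the array) of the 10 class II genes against weeks after CAWS administration (x axis), with 1 point per sample for B6 (squares) and DBA/2 mice (circles) and a line through the group means (none for H2-Ea in B6 mice); open points were not well above background. The DBA/2 points of Cd74, Ciita, H2-Aa, H2-Ab1, H2-Eb1, H2-DMa, H2-DMb1 and H2-Oa drop from 0 w to 2 w, while the B6 points drop at 4 w, and H2-Aa, H2-Ea and H2-Ob lie apart between the strains at every week.

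In DBA/2 mice, 8 of the 10 genes fell from 0 w to 2 w and none rose, against 7.82% of all probes tested that fell. The median change of the 8 genes detected in every sample (all but H2-Ea and H2-Ob) was -0.72 on the log2 scale, and that of all tested probes was -0.05. In these bulk samples, fewer cells that carry class II RNA and less of it per cell cannot be told apart. All 4 comparisons with 0 w share the same 2 DBA/2 samples at 0 w. Whether the 2 DBA/2 samples at 2 w came from separate mice is not settled by their labels.

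Ciita, the switch of the set, had normalized log2 signals in DBA/2 mice of 0.93 and 0.76 at 0 w, -0.09 and -0.21 at 2 w, 0.45 and 0.27 at 4 w, -0.04 and -0.25 at 8 w and -0.09 and -0.21 at 9 w. It stood highest at 0 w, lay between at 4 w and was lowest at 2, 8 and 9 w, whose samples overlapped. Ciita fell by 0.99 (SE 0.10, adjusted p = 0.00039) at 2 w, fell by 0.49 (SE 0.10, adjusted p = 0.0128) at 4 w, fell by 0.99 (SE 0.10, adjusted p = 0.000132) at 8 w and fell by 1.00 (SE 0.10, adjusted p = 0.000145) at 9 w. The 4 w call was lost when the first 0 w or the second 4 w sample of DBA/2 mice was left out, with changes of -0.40 and adjusted p-values of 0.0937 to 0.0989. Without any 1 of the samples the other 3 calls held.

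Cd74, the invariant chain and chaperone of all class II pairs, read 2.82 and 2.77 at 0 w, 2.11 and 2.05 at 2 w, 2.62 and 2.52 at 4 w, 2.50 and 2.38 at 8 w and 2.20 and 2.30 at 9 w in DBA/2 mice. The order from lowest to highest was 2, 9, 8, 4 and 0 w, with no overlap between neighbors. Cd74 fell by 0.71 (SE 0.09, adjusted p = 0.00088) at 2 w, fell by 0.35 (SE 0.09, adjusted p = 0.0164) at 8 w and fell by 0.54 (SE 0.09, adjusted p = 0.00162) at 9 w, and its 4 w difference of -0.22 did not pass (SE 0.09, adjusted p = 0.137). The 8 w call did not hold without the first or the second 0 w sample or the second 8 w sample, with changes from -0.38 to -0.29 and adjusted p-values of 0.0573 to 0.108.

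Both chains of I-A fell at 2 and 9 w, and at 4 and 8 w neither passed the test. H2-Aa, the alpha chain, measured 1.79 and 1.68 at 0 w, 1.06 and 0.95 at 2 w, 1.57 and 1.47 at 4 w, 1.67 and 1.53 at 8 w and 1.08 and 0.80 at 9 w. H2-Ab1, the beta chain, measured 3.54 and 3.46 at 0 w, 2.73 and 2.60 at 2 w, 3.40 and 3.29 at 4 w, 3.59 and 3.46 at 8 w and 3.04 and 2.97 at 9 w. The samples of 4 and 8 w lay close to those of 0 w for both chains, overlapping them at 8 w for H2-Ab1. At 2 w H2-Aa fell by 0.73 (SE 0.11, adjusted p = 0.00222) and H2-Ab1 fell by 0.84 (SE 0.09, adjusted p = 0.000359). At 9 w H2-Aa fell by 0.80 (SE 0.11, adjusted p = 0.000651) and H2-Ab1 fell by 0.50 (SE 0.09, adjusted p = 0.00239). At 8 w the differences were -0.14 and 0.03, with SEs of 0.11 and 0.09. The second H2-Aa probe and the other 3 H2-Ab1 probes passed in the same direction at 2 w, by -0.52 for H2-Aa and -0.73 to -0.78 for H2-Ab1, and again at 9 w.

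The probe listed as H2-Eb1, the I-E beta chain, carries a database entry described as an I-A beta chain. Its mm8 position, chr17:33922800-33923261, lies apart from that of the brightest H2-Ab1 probe, chr17:33877309-33877368, so its description and its position disagree. In DBA/2 mice the H2-Eb1 probe measured 1.25 and 1.31 at 0 w, 0.62 and 0.54 at 2 w, 1.44 and 1.34 at 4 w, 1.50 and 1.42 at 8 w and 1.09 and 0.98 at 9 w. Its signal fell by 0.70 (SE 0.08, adjusted p = 0.000553) at 2 w, and its samples of 4 and 8 w then lay above both 0 w samples, by differences of 0.12 and 0.18 that did not pass (SE 0.08, adjusted p = 0.41 and 0.128). At 9 w it fell by 0.24 (SE 0.08, adjusted p = 0.0457), a call that did not hold in 15 of the 18 fits without 1 sample, where adjusted p-values ran from 0.0540 to 0.199. H2-Ea, the I-E alpha chain, measured -0.91 and -1.21 at 0 w, -1.40 and -1.58 at 2 w, -1.05 and -1.17 at 4 w, -0.32 and -0.42 at 8 w and -1.35 and -1.69 at 9 w in DBA/2 mice. It was highest at 8 w, above both 0 w samples. The spread of H2-Ea in the fit over all samples was set by the undetected B6 values (SE 0.90), and its 8 w difference of 0.69 had an adjusted p of 0.656. Fitted in the DBA/2 samples alone, which was among the alternative settings, the same difference of 0.69 passed (limma adjusted p = 0.0303).

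H2-DM, the editor that exchanges the invariant chain remnant for peptide, had chains that parted after 2 w. H2-DMa measured -1.54 and -1.63 at 0 w, -2.19 and -2.26 at 2 w, -1.79 and -1.85 at 4 w, -1.56 and -1.58 at 8 w and -1.52 and -1.46 at 9 w. H2-DMb1 measured 2.15 and 1.96 at 0 w, 1.52 and 1.38 at 2 w, 1.75 and 1.67 at 4 w, 1.59 and 1.46 at 8 w and 1.26 and 1.03 at 9 w. H2-DMa was within its 0 w range at 8 w, while H2-DMb1 was lower at each later week than at 0 w and lowest at 9 w. At 2 w H2-DMa fell by 0.64 (SE 0.08, adjusted p = 0.000687) and H2-DMb1 fell by 0.61 (SE 0.11, adjusted p = 0.00498). H2-DMb1 also fell by 0.53 (SE 0.11, adjusted p = 0.00579) at 8 w and fell by 0.91 (SE 0.11, adjusted p = 0.000271) at 9 w, whereas H2-DMa differed from 0 w by 0.02 and 0.10 at these weeks (SE 0.08, adjusted p = 0.385 at 9 w). H2-DMb2, a near-identical copy that the arrays may not separate from H2-DMb1, fell by 0.84, 0.54, 0.83 and 0.77 at 2, 4, 8 and 9 w. H2-Eb2 was well above background in too few samples to be tested.

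H2-Oa, the alpha chain of H2-DO, which in blood is a product of B cells, was lower than at 0 w at every later week in DBA/2 mice. Its values were 0.43 and 0.48 at 0 w, -0.34 and -0.20 at 2 w, -0.31 and -0.21 at 4 w, -0.26 and -0.15 at 8 w and -0.61 and -0.73 at 9 w. The samples of 2, 4 and 8 w overlapped one another and those of 9 w lay below them. H2-Oa fell by 0.72 (SE 0.09, adjusted p = 0.000761) at 2 w, fell by 0.72 (SE 0.09, adjusted p = 0.000616) at 4 w, fell by 0.66 (SE 0.09, adjusted p = 0.000543) at 8 w and fell by 1.12 (SE 0.09, adjusted p = 2.83e-05) at 9 w, and its second probe fell by 0.82, 0.69, 0.62 and 1.14. These calls held in all fits without 1 sample. H2-Ob, the beta chain of H2-DO, was near the background in DBA/2 mice, at -4.32 and -4.71 at 0 w, -4.83 and -5.08 at 2 w, -4.88 and -5.22 at 4 w, -4.49 and -4.06 at 8 w and -5.60 and -5.39 at 9 w. It was well above background on 1 of the 2 arrays of 0 w and on neither of 9 w, so no fold change is given. The fitted 9 w difference was -0.99 (SE 0.21, adjusted p = 0.00791), lost without the first 0 w sample and positive, at 0.96, after normexp background correction.

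By week in DBA/2 mice, 2 genes fell at 4 w (Ciita and H2-Oa, against 7.24% of all probes that fell), 4 at 8 w (Ciita, Cd74, H2-DMb1 and H2-Oa, against 14%) and 8 at 9 w (those 4 with H2-Aa, H2-Ab1, H2-Eb1 and H2-Ob, against 14.3%). No class II gene rose at any week in this fit. With the scan day as a block H2-DMa (-0.23, adjusted p = 0.0462) and H2-DMb1 (-0.34, adjusted p = 0.0221) passed as well at 4 w, which made 4 genes. At 4, 8 and 9 w the 8 genes had median changes of -0.23, -0.25 and -0.67, and all probes of -0.10, -0.18 and -0.03. For the mean of 4 and 8 w, 4 genes fell: Ciita by 0.74 (SE 0.09, adjusted p = 0.000357), H2-Oa by 0.69 (SE 0.08, adjusted p = 0.000187), H2-DMb1 by 0.43 (SE 0.09, adjusted p = 0.00805) and Cd74 by 0.29 (SE 0.08, adjusted p = 0.0231), against 13.1% of all probes. The last 2 were lost without the first DBA/2 0 w sample, and Cd74 also in 3 other fits without 1 sample. Within the slides that held DBA/2 mice of 0 and 2 w, 8 of 8 genes were lower at 2 w on both slides, with medians of -0.72 and -0.73. Within the first scan day the medians of the 8 genes at 2, 4, 8 and 9 w were -0.72, -0.24, -0.22 and -0.66, and within the second -0.73, -0.23, -0.27 and -0.68. DBA/2 mice of 9 w were on no slide with those of 0 w, so that slide and week cannot be told apart there. After normexp background correction Ciita and H2-Aa alone passed at 2 w, with all 8 genes still lower and adjusted p-values of 0.0821 to 0.661 for the other 6.

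**Figure D2:**
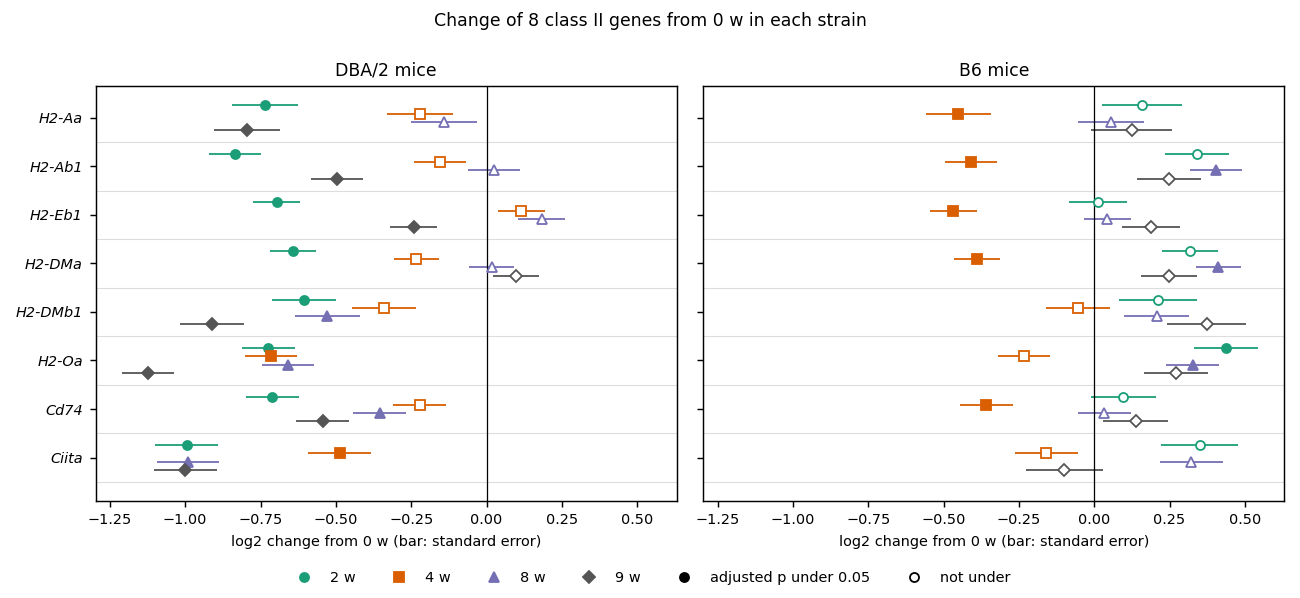
Log2 change from 0 w (x axis) of the 8 class II genes detected in every sample, with a symbol for each of 2, 4, 8 and 9 w, in DBA/2 mice on the left and B6 mice on the right; bars are 1 SE from limma and filled symbols had an adjusted p under 0.05. At 2 w the 8 DBA/2 changes that passed run from -0.99 for Ciita to -0.61 for H2-DMb1, and at 4 and 8 w Ciita and H2-Oa stay to the left of the other genes.

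In B6 mice 5 of the 10 class II genes fell at 4 w (H2-Aa, H2-Ab1, H2-Eb1, H2-DMa and Cd74), and none fell at 2, 8 or 9 w. At 2 w, 1 gene, H2-Oa, rose, by 0.44 (SE 0.11, adjusted p = 0.025), against 5.29% of all probes that rose, and the call did not hold without either 0 w sample. With the scan day as a block H2-Ab1 (0.30, adjusted p = 0.0212) and H2-DMa (0.31, adjusted p = 0.0425) rose at 2 w too. The 5 genes of 4 w stand against 9.66% of all probes that fell. At 8 w 3 genes rose, against 11% of all probes, and Ciita with the scan day as a block (0.32, adjusted p = 0.0145). None of the 3 passed after normexp background correction or with no filter on dim probes, and 9 genes did when the arrays were not scaled. At 9 w limma called 0 of the 10, against 9.33% of all probes called in either direction, and 4 had an unadjusted p under 0.05, while H2-Ab1 (0.29, adjusted p = 0.0269) and H2-DMb1 (0.42, adjusted p = 0.0317) passed with the scan day as a block and 7 genes without scaling. The medians of the 8 genes within the first scan day, which held 2, 4 and 8 w, were 0.24, -0.37 and 0.24, and within the second, which held 4, 8 and 9 w, they were -0.34, 0.27 and 0.21. Each comparison used the same 2 B6 samples at 0 w, which carried the hepatocyte signal, as did those at 8 w, and the part of that signal in these changes was not tested.

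Cd74 in B6 mice measured 2.59 and 2.67 at 0 w, 2.72 at 2 w, 2.28 and 2.26 at 4 w, 2.57 and 2.75 at 8 w and 2.77 at 9 w. The 4 w samples were the lowest, and those of 8 w spanned the samples of 0 and 2 w. Cd74 fell by 0.36 (SE 0.09, adjusted p = 0.0234) at 4 w. H2-Aa measured 0.26 and 0.12 at 0 w, 0.35 at 2 w, -0.29 and -0.23 at 4 w, 0.24 and 0.25 at 8 w and 0.31 at 9 w and H2-Ab1 3.04 and 2.95 at 0 w, 3.34 at 2 w, 2.60 and 2.57 at 4 w, 3.43 and 3.37 at 8 w and 3.24 at 9 w. Both I-A chains were lowest at 4 w, and H2-Ab1 was highest at 8 w. At 4 w H2-Aa fell by 0.45 (SE 0.11, adjusted p = 0.0222) and H2-Ab1 fell by 0.41 (SE 0.09, adjusted p = 0.0119), and the other probes of both genes fell by 0.41 to 0.45. H2-Ab1 rose by 0.40 (SE 0.09, adjusted p = 0.00895) at 8 w, a call lost in 2 of 18 fits without 1 sample.

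The H2-Eb1 probe of B6 mice measured 1.31 and 1.30 at 0 w, 1.32 at 2 w, 0.87 and 0.81 at 4 w, 1.31 and 1.39 at 8 w and 1.50 at 9 w. It too was lowest at 4 w, where it fell by 0.47 (SE 0.08, adjusted p = 0.00396). This was the 1 call of the 5 at 4 w that held in all 18 fits without 1 sample, and the other 4 were lost in 2 to 4 of them. H2-DMa measured -1.78 and -1.77 at 0 w, -1.46 at 2 w, -2.22 and -2.11 at 4 w, -1.33 and -1.40 at 8 w and -1.53 at 9 w, with the 4 w samples lowest and the 8 w samples highest. H2-DMa fell by 0.39 (SE 0.08, adjusted p = 0.00827) at 4 w and rose by 0.41 (SE 0.08, adjusted p = 0.00408) at 8 w, the latter holding in all fits without 1 sample. H2-DMb1 stayed between 1.06 and 1.52 and passed at no week in the fit without a block.

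H2-Oa in B6 mice measured -0.13 and -0.03 at 0 w, 0.35 at 2 w, -0.29 and -0.34 at 4 w, 0.21 and 0.27 at 8 w and 0.19 at 9 w. It was lowest at 4 w and highest at 2 w. H2-Oa rose by 0.33 (SE 0.09, adjusted p = 0.026) at 8 w, lost in 4 of 18 fits without 1 sample with adjusted p-values of up to 0.153, and its 4 w difference was -0.23 with the brightest probe, which did not pass, and -0.34 with the second probe, which did (SE 0.08, adjusted p = 0.0147). Ciita in B6 mice measured -0.03 and -0.07 at 0 w, 0.30 at 2 w, -0.22 and -0.20 at 4 w, 0.27 and 0.28 at 8 w and -0.15 at 9 w and H2-Ob -2.40 and -2.14 at 0 w, -2.23 at 2 w, -2.67 and -3.02 at 4 w, -2.48 and -2.26 at 8 w and -2.19 at 9 w. Neither passed at any week in the fit without a block. The mean of 2 and 9 w was chosen as a second reference after the hepatocyte signal had been seen, and carries far less of it. Alb changed from 0 w by -6.25 at 2 w and by -10.5 at 9 w, so the 2 w sample kept more of it. Against this reference 6 genes fell at 4 w, against 8.85% of all probes: H2-Ab1 by 0.70, H2-DMa by 0.67, H2-Aa and H2-Oa by 0.59, H2-Eb1 by 0.57 and Cd74 by 0.47 (SEs of 0.08 to 0.11). On both slides that held B6 mice of 0 and 4 w, 8 of 8 genes were lower at 4 w, with medians of -0.37 and -0.30. For the mean of 4 and 8 w limma called 0 of the 10 in B6 mice, against 15.0% of all probes, with 1 at an unadjusted p under 0.05, and H2-Eb1 (-0.21, adjusted p = 0.0367) passed with the scan day as a block.

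Whether the course differed between the strains was tested as the change from 0 w of DBA/2 mice less that of B6 mice. A constant difference between haplotypes cancels in it. The hepatocyte signal of B6 mice at 0 and 8 w does not cancel, and its part in these differences was not tested. At 2 w the change was more negative in DBA/2 mice for 8 of the 10 genes, against 7.11% of all probes. The differences were -1.34 for Ciita (SE 0.16, adjusted p = 0.000494), -1.18 for H2-Ab1 (SE 0.14, adjusted p = 0.000356) and -1.16 for H2-Oa (SE 0.14, adjusted p = 0.000404). H2-DMa, H2-Aa, H2-DMb1, Cd74 and H2-Eb1 followed with -0.96, -0.89, -0.82, -0.81 and -0.71. All 8 held in the 17 fits without 1 sample that could be made, although B6 2 w was a single sample whose spread was taken from the other groups. After normexp background correction 1 of the 8, Ciita, passed, and with no filter on dim probes 5 passed.

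At 4 w, when the genes were low in B6 mice, 2 genes differed, against 11.9% of all probes. H2-Eb1 moved by 0.58 more in DBA/2 mice (SE 0.11, adjusted p = 0.00829) and H2-Oa by -0.48 (SE 0.12, adjusted p = 0.0329), the latter lost in 8 of 18 fits without 1 sample. At 8 w the change differed for 4 genes, each time more negative in DBA/2 mice, against 10.3% of all probes. It differed by -1.31 for Ciita (SE 0.15, adjusted p = 0.000448), -0.99 for H2-Oa (SE 0.12, adjusted p = 0.000764), -0.73 for H2-DMb1 (SE 0.15, adjusted p = 0.00918) and -0.40 for H2-DMa (SE 0.11, adjusted p = 0.0316). That of H2-DMa was lost in 8 of 18 such fits. With the scan day as a block H2-Ab1 (-0.38, adjusted p = 0.00967) and Cd74 (-0.39, adjusted p = 0.0493) passed too, and the count was 1 after normexp, 2 with no filter on dim probes and 9 without scaling. At 9 w the change differed for 6 genes, again each time more negative in DBA/2 mice, against 5.94% of all probes. These were H2-Oa by -1.39 (SE 0.14, adjusted p = 0.000444), H2-DMb1 by -1.28 (SE 0.17, adjusted p = 0.00172), and H2-Aa, Ciita, H2-Ab1 and Cd74 by -0.92, -0.90, -0.74 and -0.68. H2-Eb1 (-0.45, adjusted p = 0.0243) joined them with the scan day as a block, and the count was 3 after normexp, 2 with no filter and 9 without scaling.

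For the mean of 4 and 8 w, 4 of the 10 genes differed in their change between the strains, against 13.2% of all probes. Ciita differed by -0.82 (SE 0.13, adjusted p = 0.00294) and H2-Oa by -0.73 (SE 0.11, adjusted p = 0.00201), and both held without any 1 sample. H2-DMb1 differed by -0.51 (SE 0.13, adjusted p = 0.0314) and H2-Eb1 by 0.36 (SE 0.10, adjusted p = 0.0367), and these were lost in 9 and 12 of 18 fits without 1 sample. H2-Eb1 had the opposite sign, -0.24, when the arrays were not scaled.

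**Figure D3:**
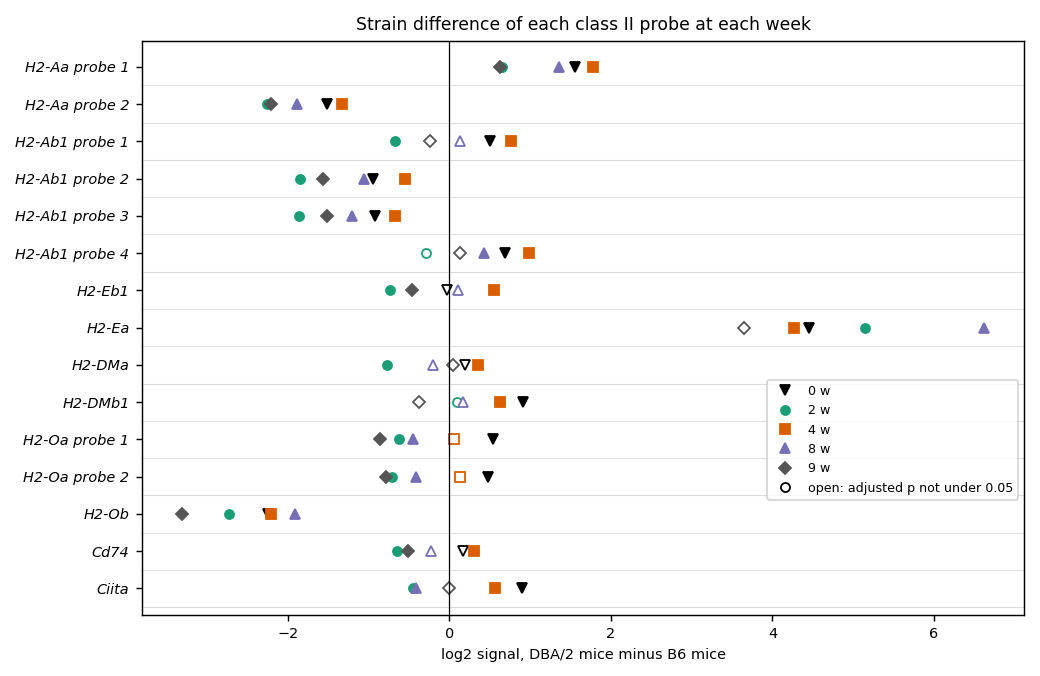
Log2 difference in signal between the strains (x axis, DBA/2 minus B6) for each of the 15 class II probes (1 row each, the brightest probe of a gene numbered first), with a symbol for each of 0, 2, 4, 8 and 9 w; open symbols had an adjusted p of 0.05 or more. The symbols of H2-Ea and of the brightest H2-Aa probe lie above 0 at every week, those of H2-Ob, the second H2-Aa probe and 2 H2-Ab1 probes lie below 0, and those of the other probes lie on both sides.

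By the brightest probe of each gene, the level difference between the strains varied with the week. DBA/2 mice were higher at 0 w for 6 genes, against 17.2% of all probes, lower at 2 w for 7, against 12.5%, and higher at 4 w for 8, against 19.1%. Ciita and H2-Ab1 passed as higher, lower and higher at these weeks, whereas H2-Aa and H2-Ea were higher and H2-Ob lower at all 3. The second H2-Aa probe and 2 other H2-Ab1 probes were lower in DBA/2 mice at every week. The directions for H2-Aa and H2-Ab1 therefore depend on the probe. At 8 and 9 w 5 genes each differed in either direction, against 25.4% and 13.3%. Ciita ran 0.90, -0.45, 0.57, -0.42 and -0.01 over the 5 weeks in order, of which all but the last passed. H2-Ab1 ran 0.50, -0.67, 0.76, 0.13 and -0.24, of which the first 3 passed. With the scan day as a block H2-Ab1 (-0.28, adjusted p = 0.0247) and H2-DMb1 (-0.42, adjusted p = 0.0253) also differed at 9 w. Without scaling of the arrays the 2 w differences of H2-Ab1, H2-Oa, Cd74 and Ciita were above 0, at 0.04 to 0.26, and did not pass.

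H2-Ea, whose promoter B6 mice lack, had the widest difference between the strains of the 10 genes. Its processed signal was 118 to 350 intensity units on the DBA/2 arrays and 2.38 to 44.3 on the B6 arrays. No B6 array of 2, 8 or 9 w detected it above background, where DBA/2 mice were at least 10.2-fold, 26.0-fold and 8.79-fold higher, taking for each B6 array the lowest signal called well above background as its bound. At 0 w 1 of 3 B6 arrays had it above background, and at 4 w 1 of 2. The B6 array of 0 w that did, at 44.3 units, and a second array of the same RNA, at 4.89 units, were averaged. H2-Ob ran the other way: it was well above background in all 8 B6 samples and 5 of the 10 DBA/2 samples, with B6 mice at least 5.55-fold higher at 9 w. Its fitted mean difference over the 5 weeks was -2.48, which rests on undetected signals in 5 DBA/2 samples, and it was -0.82 after normexp background correction.

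Probes of 1 gene gave strain differences of opposite sign. Over the mean of the 5 weeks H2-Aa was higher in DBA/2 mice by 1.19 with the brightest probe (SE 0.05, adjusted p = 1.08e-07) and lower with the second, by -1.84 (SE 0.05, adjusted p = 2.07e-09), which lies within the same gene at chr17:33892680-33892739 against chr17:33892022-33892081 (mm8, minus strand). The 4 H2-Ab1 probes gave 0.10, 0.39, -1.19 and -1.23, and all but the first passed. The same probes moved together with week inside each strain, as given above for 2 w in DBA/2 mice and 4 w in B6 mice. Sequence under a probe and RNA level cannot be told apart in a comparison between these haplotypes. By the brightest probe 7 genes differed over the mean of the 5 weeks, against 41.8% of all probes. They were H2-Ea, H2-Aa and H2-DMb1 (0.28), higher in DBA/2 mice, and H2-Ob, H2-Oa (-0.27), Cd74 (-0.18) and H2-Eb1 (-0.11), lower. The last 3 turned above 0 when the arrays were not scaled, and 11 of the 16 fits without 1 sample lost H2-Eb1. With the scan day as a block H2-Ab1 (0.10, adjusted p = 0.0186) and Ciita (0.12, adjusted p = 0.0291) passed as well.

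Marker lists of blood cells are read against the shares of all probes that changed. In DBA/2 mice 7.82%, 7.24%, 14% and 14.3% of all probes fell at 2, 4, 8 and 9 w and 7.90%, 7.58%, 10% and 13.4% rose. In B6 mice 7.73%, 9.66%, 10.2% and 3.86% fell and 5.29%, 6.02%, 11% and 5.48% rose. Markers of B cells, the main class II-bearing cells of blood, were lower at every later week in DBA/2 mice and at 4 w in B6 mice. All 14 listed B cell markers were tested, and in DBA/2 mice 12, 9, 11 and 13 of them fell at 2, 4, 8 and 9 w and none rose, with median changes of -0.91, -0.45, -0.72 and -1.02. Their summed level was 39.5 to 42.3 at 0 w, 21.6 to 22.9 at 2 w, 29.0 to 29.6 at 4 w, 26.3 to 27.7 at 8 w and 19.98 to 21.3 at 9 w, in multiples of the 75th percentile. In B6 mice 8 of the 14 fell at 4 w, with a median of -0.36, and 4 rose at 2 w. The B6 sums were 30.6 to 30.8 at 0 w, 40.2 at 2 w, 23.9 to 24.7 at 4 w, 30.4 to 31.2 at 8 w and 29.9 at 9 w. The lowest sums were thus at 2 and 9 w in DBA/2 mice and at 4 w in B6 mice, the weeks at which the I-A chains were lowest. At 8 w in DBA/2 mice the B cell sum was below its 0 w range while H2-Aa, H2-Ab1, H2-Eb1 and H2-DMa did not pass, and at 8 w in B6 mice H2-Ab1 and H2-DMa rose while the B cell sum overlapped that of 0 w. Blk was not well above background in any sample of B6 4 w, DBA/2 2 w or DBA/2 9 w, and the other 13 were detected in every group. The part of these markers in the class II changes was not tested.

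Markers of monocytes and macrophages, of which a part carry class II, mostly rose in DBA/2 mice. In these mice 4, 9, 9 and 9 of 11 rose at 2, 4, 8 and 9 w and 2 fell at 2 w. Their medians were 0.24, 1.32, 1.51 and 1.23, and their sum went from 102 to 108 at 0 w to 226 to 252 at 8 w. In B6 mice 5 of 11 fell and 2 rose at 4 w, while 7 rose at 8 w and 6 at 9 w. In the single B6 sample of 2 w the largest differences from 0 w were 0.88 for Cd14, 0.73 for Cx3cr1, 0.64 for Fcgr1, 0.63 for Ccr2 and -1.12 for F13a1. The B6 sample of 9 w had no detected Ms4a7. Of the dendritic cell markers 8 of 10 were tested, with Siglech undetected in all groups but DBA/2 4 w and Flt3 in 3 groups, and their sum in DBA/2 mice stayed between 4.06 and 5.84. Within that list Clec10a, a lectin of dendritic cells and macrophages, fell by 0.48 at 2 w and rose by 1.79 at 4 w and 2.08 at 9 w. Ccr7, the lymph node homing receptor, fell by 0.40 at both 2 and 4 w and by 0.81 at 9 w. Itgax rose by 0.35 at 2 w and 0.71 at 4 w. Siglech passed as higher at 4 w, but it entered the test only through its 2 detected samples of that group. Nothing is drawn from that call. No other marker of the list passed at 2 or 4 w in DBA/2 mice. In B6 mice Itgax fell by 0.52 at 2 w and 0.64 at 4 w, and Ccr7 fell by 0.42 at 8 w. Clec10a there fell by 0.76 at 4 w and rose by 0.43 and 0.88 at 8 and 9 w. Of 9 neutrophil markers on the arrays, cells without class II, 8 to 9 rose at each week in DBA/2 mice, with a sum of 105 to 106 at 0 w and 696 to 776 at 8 w, and likewise 8 or 9 in B6 mice. Of 10 T cell markers 1, 2, 6 and 7 fell in DBA/2 mice at 2, 4, 8 and 9 w, and 1, 5, 4 and 5 in B6 mice. Of 6 NK cell markers 4 and 5 rose at 4 and 8 w and 4 fell at 9 w in DBA/2 mice, while in B6 mice 6, 5 and 5 fell at 4, 8 and 9 w. Of 4 platelet markers, all 4 rose at 2 and 9 w and 3 at 4 w in DBA/2 mice, and in the B6 sample of 2 w all 4 fell, with a median of -1.47, while 3, 2 and 1 rose at 4, 8 and 9 w in B6 mice. Of 5 erythroid markers 2, 0, 1 and 5 rose at 2, 4, 8 and 9 w in DBA/2 mice, and in B6 mice all 5 fell at 8 w and 3 at 9 w. Of 4 plasma cell markers at most 1 rose and at most 2 fell at any week in either strain. The part of these lists in the class II changes was not tested.

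**Figure D4:**
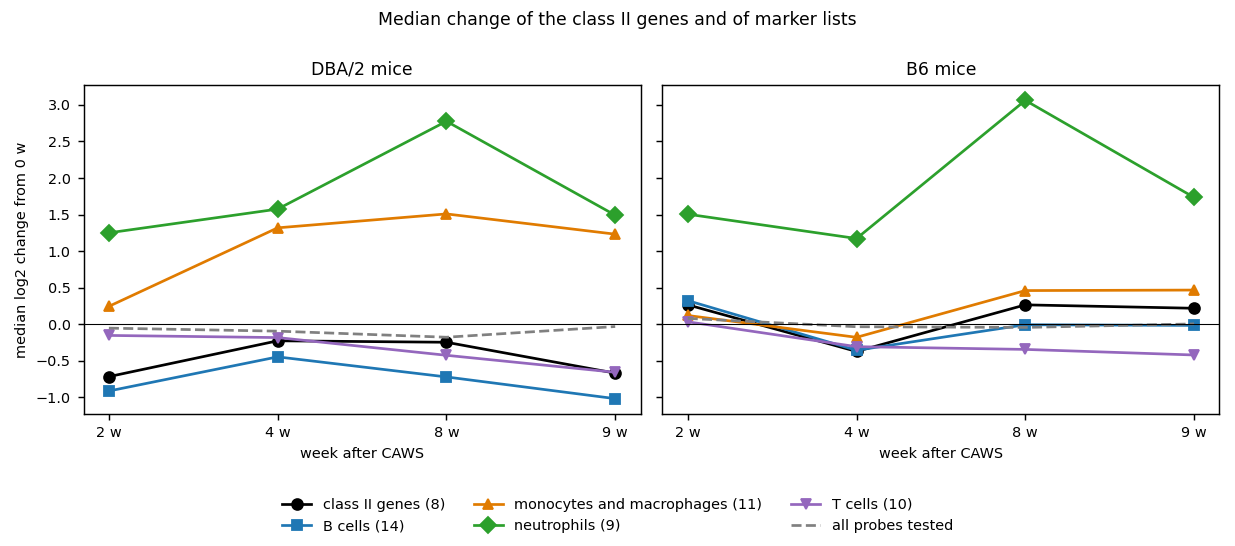
Median log2 change from 0 w (y axis) of 8 class II genes and of marker lists for B cells, monocytes and macrophages, neutrophils and T cells, at 2, 4, 8 and 9 w (x axis) in DBA/2 and B6 mice, with the median of all tested probes for comparison. In DBA/2 mice the class II line reads -0.72, -0.23, -0.25 and -0.67 and the B cell line -0.91, -0.45, -0.72 and -1.02, and in B6 mice both are lowest at 4 w.

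Of 13 genes that act in class II transcription 12 were tested. In DBA/2 mice 2, 4, 4 and 4 rose and 3, 1, 1 and 4 fell at 2, 4, 8 and 9 w, with medians of -0.15, -0.05, -0.05 and 0.08, to be read against the shares of all probes given for the marker lists. Among genes that carry the interferon gamma signal to Ciita, Ifng, the cytokine, rose by 1.79, 1.49 and 0.81 at 4, 8 and 9 w, and Irf1, a transcription factor induced by it, rose by 0.35, 0.50, 1.41 and 0.97 from 2 w on. At these same weeks Ciita was below its 0 w level. Spi1, the myeloid and B cell factor PU.1, passed as higher at all 4 weeks, but it was well above background in 7 of the 18 samples only and no size is given. Among factors shared with B cells, Irf8 fell by 0.52 at 2 w and 0.32 at 9 w, and Irf4 by 0.77 at 2 w. Of the X box and Y box binding factors, Rfxap and Nfyc did not pass at any week in DBA/2 mice, Rfxank fell by 0.32 and Nfyb by 0.37 at 9 w, and Nfya fell by 1.05 at 4 w. In B6 mice Ifng fell at 4, 8 and 9 w, by 0.79, 0.48 and 1.04, Irf8 fell by 0.41 at 4 w, and Irf1 fell by 0.40 at 4 w and rose by 0.46 at 9 w. At 8 and 9 w Rfxank fell in these mice, by 0.76 and 0.61, and no gene of the list besides Rfxank, Ifng and Irf1 passed there.

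The 12 genes of antigen processing and class II turnover did not move as one in DBA/2 mice, where 4, 4, 6 and 5 rose and 4, 0, 1 and 3 fell at 2, 4, 8 and 9 w. Ctss, the protease that trims Cd74 in B and dendritic cells, fell by 0.41 at 2 w and then rose by 0.49, 1.15 and 0.41. Ctsl, a macrophage protease that trims Cd74 in thymic epithelium, rose by 2.33, 1.68 and 1.71 at 4, 8 and 9 w. Ifi30, the lysosomal thiol reductase, fell by 0.59 at 2 w and rose by 0.37 at 8 w. Cd83, which shields surface class II from turnover, fell by 0.68, 0.40 and 0.74 at 2, 8 and 9 w. Marchf1, a ligase that sends class II to degradation, fell by 0.31 at 9 w. In B6 mice 4, 1, 3 and 2 of the 12 rose and 3, 2, 2 and 0 fell, to be read against the B6 shares given for the marker lists. There Ctsl fell by 1.39 at 2 w and 1.85 at 4 w, Ctss rose by 0.53, 0.52 and 0.53 at 2, 8 and 9 w, and Ifi30 fell by 0.44 at 4 w and rose by 0.43, 0.49 and 0.40 at the other weeks. Of 4 costimulatory genes, Cd40, the receptor for T cell help on B cells, fell in DBA/2 mice by 0.90 at 2 w and 0.55 at 9 w, and Cd80, Cd86 and Icosl did not pass there. In B6 mice Icosl rose by 0.70 and Cd40 by 0.42 at 8 w, and Cd80, which was well above background in 3 of the 18 samples, passed as higher at 9 w.

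The probes whose pattern was most like that of Cd74, by Pearson's r over the 18 samples after each strain's mean had been subtracted, were drawn from 21963 compared probes. The 10 most alike were Mgat1 (r = 0.967), Lztr1 (0.956), Blnk (0.946), Trnau1ap (0.940), Bmyc (0.930), Cnot2 (0.922), Wdfy4 (0.919), Sting1 (0.917), Cd72 (0.914) and Fgd2 (0.911). Of these, Blnk, a B cell receptor adaptor, and Cd72, a B cell surface inhibitor, belong to the B cell list. Among class II genes H2-Aa ranked 20th by r (0.887) and H2-Ab1 52nd (0.857), ahead of H2-Eb1 (0.820), Ciita (0.799), H2-DMb1 (0.788), H2-Oa (0.756), H2-DMa (0.640), H2-Ob (0.578) and H2-Ea (0.08). These correlations rest on samples that share arrays, slides and normalization and are given as a description.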

How the data were processed

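Blood leukocyte RNA of 18 samples was hybridized to 19 single-color arrays. The deposited intensities were made by the authors with Agilent Feature Extraction (9.5.3.1 per the submitters' processing notes), which subtracted background, with probe positions on mm8. The deposited value table holds unscaled intensity of the same arrays and served as an alternative. Here log2 intensity had each array's 75th percentile over the 11536 probes detected on all arrays subtracted, and the 2 arrays of B6 0 w replicate 2 were averaged. Probes detected above background by 2 samples or more (22939) went into a linear model (limma 3.58.1, R 4.3.3) with 10 group means, 8 residual degrees of freedom and no replicate block, and Benjamini-Hochberg adjustment over all of them (threshold 0.05). The spread of single-sample groups came from the other groups. The number of arrays limits precision. The methods name no test. Each gene is given by its brightest probe, all class II genes are named, and genes of the other lists are named where they passed or are needed to describe a list. Values of some listed genes are not reported here. The genes and lists were chosen with earlier results of these data known. Sums of a marker list are over linear signals divided by the percentile. The lists tested were class II transcription, antigen processing, costimulation, and markers of B cells, plasma cells, monocytes, dendritic cells, T cells, NK cells, neutrophils, erythroid cells, platelets and hepatocytes. The replicate number coincided with the scan day in the file headers, so the replicate block is also the scan day as a block. Deviations of same-numbered samples correlated with r from -0.01 to 0.46 over 28 pairs of groups, 12 of them over 0.1. The fit was tested on simulated data of 21964 probes. For the mean of 4 and 8 w in DBA/2 mice it recovered 46 of 93 changes of 2-fold and 77 of 107 of 4-fold, with 3 false calls, and for the difference of that change between the strains 36 of 93 and 64 of 107, with 3 false calls. Simulated noise was independent between samples, and far fewer probes were changed than were called in the data. These rates therefore need not hold for the real arrays. The alternatives were normexp background correction (offset 50), quantile, median and all-probe scaling, no scaling, other filters, a floor of 10, probe means, each array of the doubled sample, replicate and slide blocks, array weights, each strain alone, and leaving out each sample. Tables were handled with Python 3.11.15.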

Additional observations from a re-analysis of the deposited data

Results flagged for a closer look

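For 24 pairs of a class II gene and a week, or the mean of 4 and 8 w, the change from 0 w differed between DBA/2 and B6 mice by the test of that difference itself (limma interaction, DBA/2 minus B6, log2). At 2 w the values were -1.34 for Ciita, -1.18 for H2-Ab1, -1.16 for H2-Oa, -0.96 for H2-DMa, -0.89 for H2-Aa, -0.82 for H2-DMb1, -0.81 for Cd74 and -0.71 for H2-Eb1. At 4 w they were 0.58 for H2-Eb1 and -0.48 for H2-Oa. At 8 w they were -1.31 for Ciita, -0.99 for H2-Oa, -0.73 for H2-DMb1 and -0.40 for H2-DMa. At 9 w they were -1.39 for H2-Oa, -1.28 for H2-DMb1, -0.92 for H2-Aa, -0.90 for Ciita, -0.74 for H2-Ab1 and -0.68 for Cd74. For the mean of 4 and 8 w they were -0.82 for Ciita, -0.73 for H2-Oa, -0.51 for H2-DMb1 and 0.36 for H2-Eb1. All of these values take in the B6 samples of 0 w, which carried hepatocyte signal whose part was not tested. No group held 4 samples, so no sample was checked for standing apart from its group.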

How the results depend on the processing

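The 4 class II genes that fell in DBA/2 mice for the mean of 4 and 8 w became 2 after normexp background correction and 2 with no filter on dim probes, and 2 to 4 without 1 sample, the low value arising without DBA/2 0 w replicate 1. In B6 mice the count of 0 became 8 with unscaled arrays and 1 each with a filter at 9 of 18 samples, a floor of 10, the slide as a block and array weights. With the replicate block, which is also the scan day, it became 1 too. The block moved the counts to 4 (DBA/2 4 w), 3 (B6 2 w) and 2 (B6 9 w), lost no call, and the calls it added stand beside the results. The count of 4 genes with a strain-dependent change became 0 after normexp, 7 unscaled and 2 with no filter, and 2 to 4 without 1 sample, with 2 without either B6 0 w, 4 w or 8 w sample or DBA/2 0 w replicate 1. The 7 genes with a strain difference over the 5 weeks became 4 after normexp. Normexp also gave 2 of 8 genes at 2 w in DBA/2 mice, 1 of 4 at 8 w, and 0 at 4 w in either strain. The 3 genes of B6 mice at 8 w became 0 after normexp and with no filter and 9 unscaled, and the 0 at 9 w became 7 unscaled. The strain-dependent changes ran from 1 to 9 at 8 w and from 2 to 9 at 9 w over the alternatives. The cause was not tested in these cases.

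Directions reversed in 29 values. After normexp these were H2-Ob in DBA/2 mice at 9 w (0.96) and between strains at 9 w (0.0533), and H2-DMa between strains at 4 w (-0.0325). With the mean of a gene's probes, whose strain differences oppose each other, the strain difference was -0.80, -0.27 and -0.79 for H2-Aa at 2, 8 and 9 w and -0.32 over all weeks, and -0.16, -0.43 and -0.49 for H2-Ab1 at 0 w, at 8 w and over all weeks. Without scaling, which moved the median of all probes by 0.98 for B6 mice at 8 w, the changes were -0.33 for H2-DMa in DBA/2 mice at 9 w, 0.92 for H2-Ob in B6 mice at 8 w, and 0.33, 0.52, 0.32 and 0.37 for H2-Aa, H2-Ab1, H2-Eb1 and Cd74 in B6 mice for the mean of 4 and 8 w. The strain-dependent changes were -1.05 for H2-Eb1 and -0.85 for H2-Ob at 8 w, and -0.59 for H2-Aa and -0.24 for H2-Eb1 for the mean of 4 and 8 w. The strain differences were 0.79 for H2-Eb1 at 0 w, 0.0387 for H2-Ab1, 0.0882 for H2-Oa, 0.0671 for Cd74 and 0.26 for Ciita at 2 w, and 0.27, 0.30, 0.11 and 0.20 for H2-Eb1, H2-DMa, H2-Oa and Cd74 over all weeks. Of the values without 1 sample, 3589 kept direction and side of the threshold, 102 lost and 9 gained a call. With the slide as a block the strain differences other than that at 9 w could not be estimated. Neither could the DBA/2 9 w change and its difference from that in B6 mice.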
